A study of Mus musculus with 8 samples.

Results

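Malat1, Neat1, Meg3, Miat, Rmst, Crnde and Gm19554 are 7 long noncoding RNA genes, whose long transcripts encode no known protein. They were taken by gene symbol from a deposited table of 56465 features, in which each had 1 row, and all 7 passed the minimum mean of 10 normalized reads that left 19798 features to test. The first 5 were selected on their level in these libraries and their known roles, while Crnde and Gm19554 were chosen by their difference between WT and TG in these same libraries. The differences of those 2 genes between groups are therefore given as a description with no test.

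The 8 samples are mouse retinas labelled C57Bl/6J, 4 from WT mice and 4 from TG mice, which express human transferrin, the iron carrier of plasma. All 8 retinas, WT included, had been detached by an injection of sodium hyaluronate beneath the retina and were collected 4 days later. By sex, 3 WT retinas were male and 1 female, against 2 and 2 for TG. By eye, 3 WT retinas were right and 1 left, against 2 and 2 for TG. The labels name no age, no transgene promoter and no mouse for each retina, so a p-value covers the spread of these 8 samples, which may be partly technical. The series title names the question as the effect of transferrin during detachment, which TG against WT addresses.

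Long noncoding RNAs act largely as RNA. Malat1 is a nuclear transcript held in speckles, the stores of splicing factors, and Neat1 is the scaffold on which paraspeckles, another nuclear body, are built. Meg3 is expressed from the maternal copy of the imprinted Dlk1-Dio3 cluster, Miat (also called Gomafu) is kept in the nucleus of neurons, Rmst binds the neural factor Sox2, and Crnde is transcribed away from the homeobox gene Irx5. Gm19554 has no function that can be stated here.

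Libraries held 61535690 to 75866423 counted reads, and mitochondrial features took 20.4% to 27.5% of them. Values are DESeq2-normalized read counts, in which 1 read was worth 0.881 to 1.23 units depending on the library. The summed level of 10 rod photoreceptor markers was 3071400 to 4741731 normalized reads. WT 3 stood apart in tissue next to the retina: the summed level of 8 pigment epithelium markers was 91019 there against 3843 to 40517 in the other 7 libraries, and that of 6 oligodendrocyte and optic nerve markers was 11126 against 545 to 979. The sum of 8 lens markers was 23698 in WT 3 and 19407 in TG 6, against 48.6 to 5072 elsewhere. The log2 fold changes of the 7 genes are given below without both libraries. In whole retina, fewer cells of a type and less RNA per cell cannot be told apart.

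Only some of the 7 were abundant. Among 989 features annotated as long noncoding RNA in GENCODE M21 and measured here, Malat1 ranked 8 by mean normalized reads, Meg3 29, Neat1 128, Miat 269, Gm19554 374, Crnde 485 and Rmst 519. The class follows that annotation and holds some symbols of protein-coding genes, such as Cct6a at rank 3, so it is not purely noncoding. These ranks use the mean over all 8 libraries, which describes neither group for Gm19554 (2.32 in WT and 201 in TG) or Crnde (99.3 and 28.1). Malat1, at a mean of 11976 normalized reads, lay above 96.8% of all features tested, and Rmst, at 56.2, above 25.7%. Neat1 lay above 59.9% of them and Miat above 43.8%. The label of abundant RNA thus held for Malat1 and Meg3, and not for Miat, Crnde or Rmst, with Neat1 in between. For Gm19554 it did not hold in WT, while its TG mean of 201 lay above that of Miat in TG (182). Because level was part of how the first 5 were selected, this describes the label and is no test of it. Levels were compared between genes per kilobase of GENCODE exon inside each deposited feature, which is only an approximate length because the labels do not name the annotation used for counting. On that scale Malat1 stood at 1715 normalized reads per kilobase and Meg3 at 130. Neat1 stood at 24.3, Miat at 20.8 and Rmst at 8.45. Crnde stood at 49.2 in WT and 13.9 in TG. Gm19554 has no single place in this order. It was the lowest of the 7 in WT, at 1.19 per kilobase. In TG it stood at 103, beside 116 for Meg3 in TG, and its 8 libraries ran from 0 to 146. The libraries of Malat1 (693 to 4160 per kilobase) lay wholly above those of Meg3 (73.2 to 228), and those of Rmst (3.18 to 12.3) wholly below those of Miat (16.1 to 32.4). Neat1 (14.7 to 44.0) and Miat overlapped, so their order does not exceed their spread. The range of Crnde (11.4 to 67.2) pools WT and TG, so it does not give its order against Neat1 or Miat within a group.

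**Figure D1:**
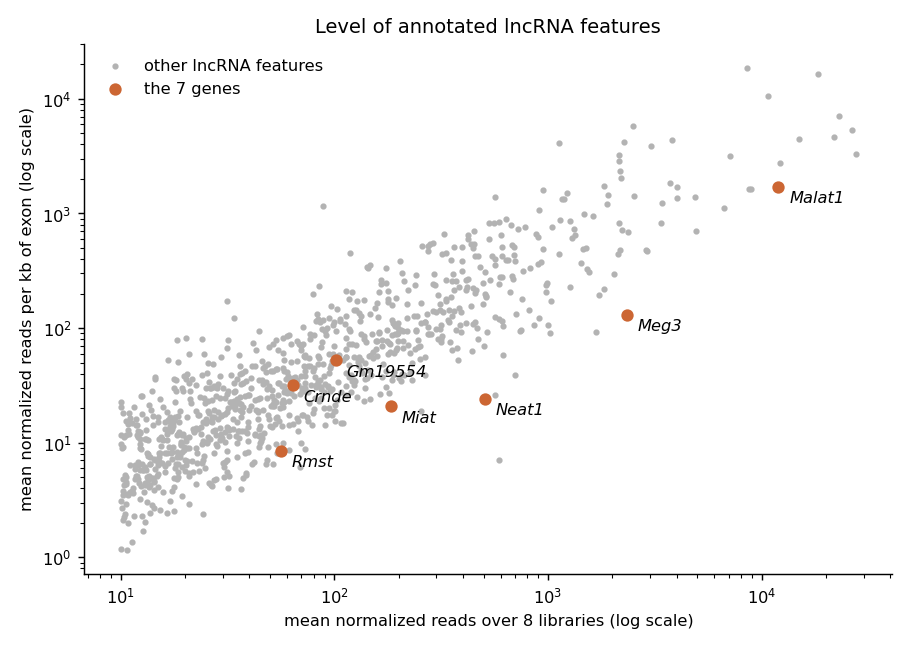
Mean normalized reads over 8 libraries (x axis, log scale) against the same per kilobase of exon (y axis, log scale) for annotated long noncoding RNA features, 1 point each. The 7 genes are orange: Malat1 sits at 11976 and 1715 per kilobase, and Rmst at 56.2 and 8.45.

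The libraries were made from polyadenylated RNA, and that bears on the nuclear genes. Malat1 is known to be cut at its 3′ end by RNase P instead of receiving a poly(A) tail, and the long form of Neat1 likewise, while the short form of Neat1 is polyadenylated. The longest run of A in the longest GENCODE transcript of Malat1 and Neat1 is shown because the libraries were selected on poly(A). Capitals mark the run, with up to 24 transcript bases on each side, 5′ to 3′. In Malat1 it was 12 bases long and began at base 6674 of 6983, close to the 3′ end. In Neat1 it was 7 bases long and began at base 9539 of 20771. Of 141767 GENCODE transcripts, 4.07% held a run as long as that of Malat1 and 22.3% one as long as that of Neat1. How much of each RNA the selection kept was not tested.
Malat1: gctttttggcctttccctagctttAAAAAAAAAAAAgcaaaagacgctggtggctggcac
Neat1: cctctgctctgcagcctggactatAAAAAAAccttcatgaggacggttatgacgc

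Malat1 (chromosome 19, 5795690 to 5802674 on mm10, minus strand, a single-exon lincRNA) was the highest of the 7 in every library. It had 13198 normalized reads in WT 3, 29050 in WT 4, 12591 in WT 5 and 4839 in WT 7. In TG it had 7514 in TG 2, 12014 in TG 5, 7759 in TG 6 and 8840 in TG 8. WT held both the highest and the lowest library, so the 4 TG values lay inside the WT range. The WT mean was 14920 ± 10160 and the TG mean 9032 ± 2070 (n = 4, SD). The log2 fold change, on the log2(value + 1) scale as all those below, was -0.48 ± 0.39 (SE), with a 95% interval from -1.31 to 0.35, and it did not pass (adjusted p = 0.92, limma). The 2 extreme WT libraries moved it in opposite directions, to -0.068 without WT 4 and to -0.93 without WT 7. WT 4 also had the lowest red blood cell sum, 2635 normalized reads over 5 markers against 14470 to 39043 in the other libraries, and the part of blood in the Malat1 value was not tested.

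Neat1 (chromosome 19, 5824708 to 5845480, minus strand, lincRNA) lies 22034 bases from Malat1 and covers the span of its long form, so the 2 forms could not be told apart. Its values were 914, 427, 568 and 361 normalized reads in WT 3, WT 4, WT 5 and WT 7. In TG 2, TG 5, TG 6 and TG 8 they were 308, 552, 604 and 305. The groups overlapped, WT 3 was highest, and the TG libraries formed a low pair and a high pair. A WT mean of 567 ± 247 and a TG mean of 442 ± 158 (n = 4, SD) gave a log2 fold change of -0.34 ± 0.32 (SE), with an interval from -1.02 to 0.34 (adjusted p = 0.92, limma). Without WT 3 it was -0.077, and without WT 3 and TG 6 together -0.25.

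Meg3 (chromosome 12, 109540996 to 109571729, plus strand, lincRNA) shares its row with the microRNA genes Mir770 and Mir1906-1. It had 4117 normalized reads in WT 3, 2493 in WT 4, 2403 in WT 5 and 1325 in WT 7. The TG values were 1635 in TG 2, 2311 in TG 5, 2417 in TG 6 and 2047 in TG 8, all between the lowest and highest WT libraries. The log2 fold change was -0.20 ± 0.27 (SE), interval -0.78 to 0.38 (adjusted p = 0.94, limma). It turned to 0.060 without WT 3, the library with the high pigment epithelium and optic nerve sums, whose part in the Meg3 value was not tested beyond leaving it out.

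Miat (chromosome 5, 112213228 to 112228950, minus strand, lincRNA) had 287, 144, 173 and 142 normalized reads in WT 3, WT 4, WT 5 and WT 7. It had 161, 197, 217 and 150 in TG 2, TG 5, TG 6 and TG 8. WT 3 was again the highest, and the groups overlapped. The log2 fold change was 0.0081 ± 0.30 (SE), interval -0.64 to 0.65 (adjusted p = 0.998, limma), and it changed sign under several settings. That interval spans 0.643-fold to 1.57-fold, so a change larger than that lies outside it, while a smaller one could not be seen at this spread.

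Rmst (chromosome 10, 92081746 to 92165178, minus strand, lincRNA) had 20 to 84 reads per library before scaling. Its mean lay above that of Gm19554 in WT and above that of Crnde in TG. Its normalized reads were 57.3, 56.2, 21.1 and 81.9 in WT 3, WT 4, WT 5 and WT 7, and 63.8, 59.0, 66.7 and 43.9 in TG 2, TG 5, TG 6 and TG 8. WT 5 lay below and WT 7 above every TG library. The log2 fold change was 0.24 ± 0.49 (SE), interval -0.81 to 1.29 (adjusted p = 0.96, limma), and without WT 5 it was -0.15.

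Of these 5 genes, 0 passed the threshold at an adjusted p under 0.05, where limma called 2 of all 19798 features, 0.0101%, of which 0.00505% were higher and 0.00505% lower in TG. At an unadjusted p under 0.05 the count was 0 of 5 with limma, against 4.64% of all features, and 0 of 5 with edgeR, against 4.12%. With DESeq2, which called 0.0808% of all features, it was 0 of 5, against 5.34%. All 5 had overlapping groups. Without WT 3 and TG 6 together, the log2 fold change was -0.38 for Malat1, -0.013 for Meg3, 0.14 for Miat, 0.25 for Rmst, -1.94 for Crnde and 7.12 for Gm19554.

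**Figure D2:**
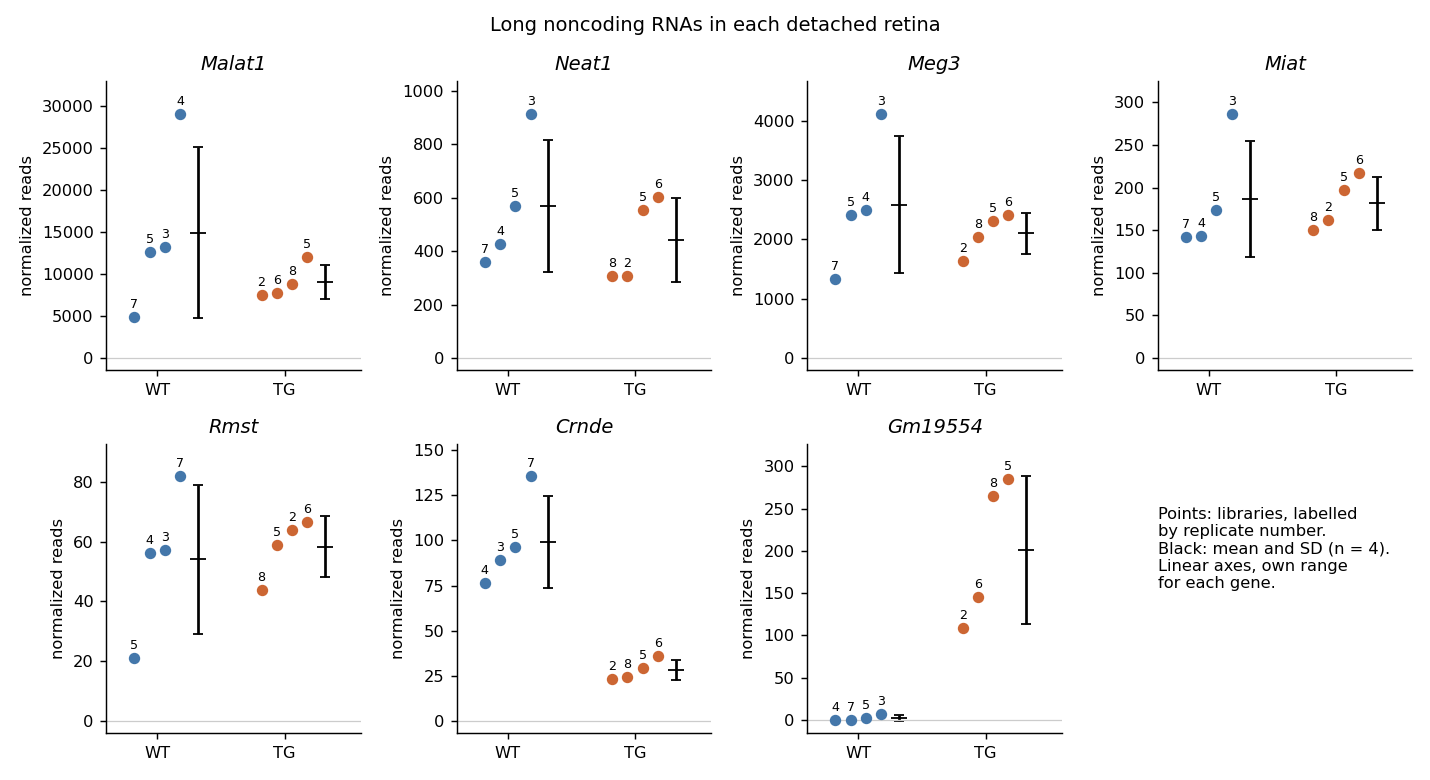
Normalized reads of each gene (y axes, linear, with a separate range per gene) in the WT and TG libraries, 1 point per library with its replicate number, and the mean with SD in black (n = 4). The groups overlap in Malat1, Neat1, Meg3, Miat and Rmst, while in Crnde the TG libraries (23.0 to 35.8) lie under the WT libraries (76.4 to 136) and in Gm19554 they lie above them.

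Crnde (chromosome 8, 92326031 to 92356121, minus strand, a processed transcript in GENCODE) had 89.0, 76.4, 96.2 and 136 normalized reads in WT 3, WT 4, WT 5 and WT 7. In TG 2, TG 5, TG 6 and TG 8 it had 23.0, 29.1, 35.8 and 24.4. Every TG library lay below every WT library. The WT mean was 99.3 ± 25.5 and the TG mean 28.1 ± 5.77 (n = 4, SD), 3.54-fold lower in TG. The log2 fold change was -1.77 ± 0.42 (SE), and it ran from -1.89 to -1.62 without 1 library. Because Crnde was chosen by this difference in these libraries, that range is a description and no test of it. Counts were low in TG, at 25 to 33 reads per library before scaling. Per kilobase, Crnde stood at 49.2 in WT and 13.9 in TG, so it lay above the Neat1 mean (27.3) in WT and below it (21.3) in TG.

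Irx5, the homeobox gene 1675 bases away from Crnde and active in bipolar cells, was the 1 feature with a symbol within 100 kb that was measured. Its WT mean was 385 ± 128 and its TG mean 528 ± 105 (n = 4, SD). The log2 difference, 0.49 ± 0.27 (SE), did not pass (adjusted p = 0.92, limma) and was of opposite sign to that of Crnde. Of the 6 Iroquois genes, the family of Irx5, 4 lay higher and 2 lower in TG and 0 passed, with a median of 0.25 against -0.02 over all features. That median was 0.036 without WT 3, 0.065 without TG 8, 0.075 without WT 4 and 0.096 without TG 2, each with 3 higher and 3 lower, and 0.40 without TG 6. With a minimum mean of 50, which left 5 of the genes, it was 0.0094. Irx3 stood at -0.33 ± 0.44 and Irx6, a bipolar cell gene, at 0.0094 ± 0.33 (SE). The other Iroquois genes, Irx1, Irx2 and Irx4, stood at 0.50, -0.57 and 0.52. The summed level of 10 bipolar cell markers was 46421 to 48379 in WT and 48278 to 66577 in TG, with 8 of 10 higher and 0 called, and its part in the Irx5 and Crnde values was not tested.

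Gm19554 (chromosome 12, 105899840 to 105902022, plus strand, lincRNA with 1 GENCODE transcript of 2076 bases) was nearly unread in WT, with 7, 0, 2 and 0 reads before scaling in WT 3, WT 4, WT 5 and WT 7. The TG libraries had 122 reads in TG 2, 323 in TG 5, 118 in TG 6 and 272 in TG 8. After scaling these were 0 to 7.16 normalized reads in WT and 108 to 284 in TG. Every TG library lay at least an order of magnitude above every WT library, and TG 5 and TG 8 lay above TG 2 and TG 6. The WT mean was 2.32 ± 3.38 and the TG mean 201 ± 87.1 (n = 4, SD). The log2 fold change was 6.38 ± 0.81 (SE), and it depended on the pseudocount, at 6.96 with 0.5 and 4.81 with 5. The ratio of the means was 86.6, against a WT mean that rests on 9 reads in all and lies under the floor of 3 reads per library. TG 5 and TG 8 were right eyes, a male and a female, and TG 2 and TG 6 left eyes. The part of eye side was not tested within TG, which holds 2 libraries of each.

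Papola, which encodes a poly(A) polymerase, was the 1 measured neighbour of Gm19554 with a symbol within 100 kb, 60901 bases away. Its WT mean was 1312 ± 179 and its TG mean 1186 ± 392 (n = 4, SD), a log2 difference of -0.19 ± 0.21 (SE) that did not pass (adjusted p = 0.93, limma). Gm19554 was the 1 of 7 past the limma threshold, where 0.0101% of all features were. Because it was chosen by this difference, and its mean reached 10 only through TG, that is no test of it. It was not past the threshold with a minimum mean of 50, no filter, a pseudocount of 0.5, sex as a term or males only, nor in 6 of 8 fits that left out 1 library (all but those without WT 3 or WT 7). Crnde and Gm19554 were the 2 of 7 whose groups did not overlap, where that held for 2.53% of all features, 1.36% with TG higher and 1.16% with TG lower. Both counts describe genes that the same comparison had brought forward, and nothing is read from them.

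**Figure D3:**
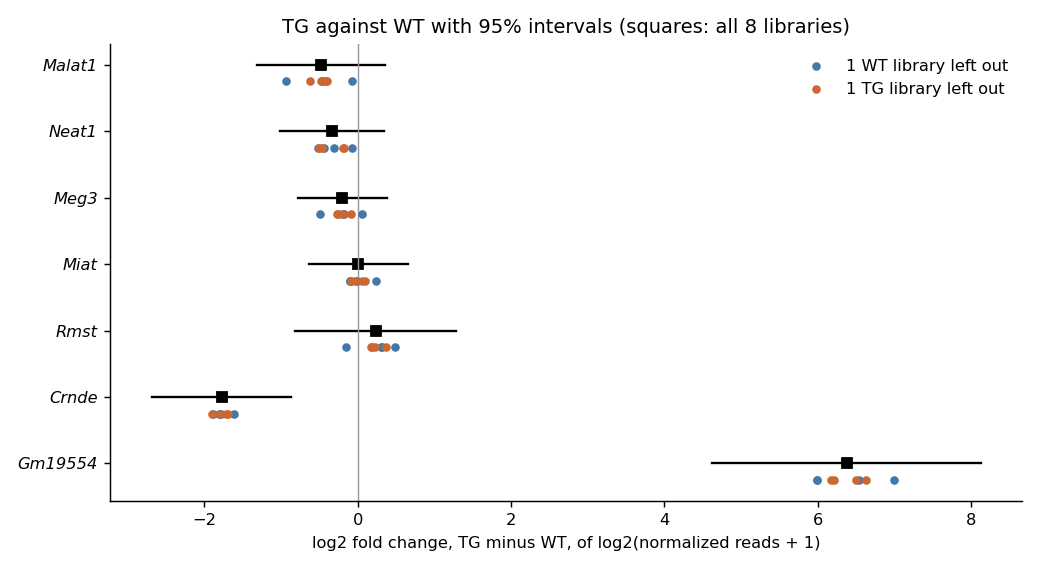
Log2 fold change TG minus WT of log2(normalized reads + 1) on the x axis for each gene (black squares, all 8 libraries, with 95% intervals) and after leaving out 1 WT (blue) or 1 TG (orange) library. The intervals of Malat1, Neat1, Meg3, Miat and Rmst include 0, and Meg3 moves from -0.49 to 0.060 depending on the library left out. Crnde and Gm19554 were chosen by this difference, so their intervals are a description and no test.

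Promoter sequences from RefSeq (GRCm38.p6, 250 bases before to 50 after the start) were found for 5 of the 7 genes, Neat1 and Rmst being the others. Those of Crnde and Gm19554 are shown because their levels separated the groups, and those of Malat1 and Meg3 because they share a short motif with Crnde. Capitals mark TGACGT, the core of the cAMP response element, CCAAT and TATAAA, searched on both strands, where overlapping matches run together. Of the 5 genes, TGACGT was found in the promoters of Malat1, Meg3 and Crnde. It was absent from that of Miat, both starts of Gm19554 and a second start of Meg3 that is not shown. Of all 32851 promoters of this length, 7.51% held it. Malat1 and Meg3 are shown because they hold the motif, so nothing is read from its presence there. Malat1 held it at 155 and 45 bases before the start and Crnde at 73. In Meg3 both strands matched, 57 and 55 bases before the start, which makes the full palindrome TGACGTCA, found in 1.79% of promoters. CCAAT was found in 37.4% of promoters and TATAAA in 13.6%. Crnde, Meg3 and the second start of Gm19554 held CCAAT, and Meg3 held TATAAA. Of the 4 promoters shown, that of Crnde held the most CpG pairs, 22, and that of Gm19554 the fewest, 3, against a median of 7 over all promoters. A match is a run of letters and not a measured site.
Crnde (chr8:92356071-92356370, minus strand): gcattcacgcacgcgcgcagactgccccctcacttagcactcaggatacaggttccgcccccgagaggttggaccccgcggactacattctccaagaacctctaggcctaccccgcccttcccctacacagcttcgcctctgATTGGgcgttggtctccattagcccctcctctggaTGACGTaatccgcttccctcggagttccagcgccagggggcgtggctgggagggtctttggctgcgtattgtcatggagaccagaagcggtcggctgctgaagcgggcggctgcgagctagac
Gm19554 (chr12:105899561-105899860, plus strand, the start nearest the deposited feature): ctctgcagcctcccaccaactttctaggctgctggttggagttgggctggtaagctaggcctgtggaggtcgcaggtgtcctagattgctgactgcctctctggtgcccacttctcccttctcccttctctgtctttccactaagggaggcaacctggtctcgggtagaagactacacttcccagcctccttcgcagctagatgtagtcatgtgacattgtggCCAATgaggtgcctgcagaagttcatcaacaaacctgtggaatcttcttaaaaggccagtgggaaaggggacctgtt
Malat1 (chr19:5802623-5802922, minus strand): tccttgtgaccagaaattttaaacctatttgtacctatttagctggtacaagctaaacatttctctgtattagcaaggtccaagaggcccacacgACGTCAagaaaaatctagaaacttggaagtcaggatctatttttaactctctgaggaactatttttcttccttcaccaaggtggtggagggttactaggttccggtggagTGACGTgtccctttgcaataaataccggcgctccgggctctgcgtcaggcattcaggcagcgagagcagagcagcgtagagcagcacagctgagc
Meg3 (chr12:109540746-109541045, plus strand): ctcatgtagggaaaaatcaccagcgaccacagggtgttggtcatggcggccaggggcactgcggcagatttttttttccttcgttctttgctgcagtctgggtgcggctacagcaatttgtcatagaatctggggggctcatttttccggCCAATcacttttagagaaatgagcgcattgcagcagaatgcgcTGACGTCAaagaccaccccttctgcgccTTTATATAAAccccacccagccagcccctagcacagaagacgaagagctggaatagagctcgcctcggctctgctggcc

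Neat1 varied with Miat and with Meg3 across retinas by Pearson's r, while no pair passed by rho after adjustment. Over the 8 libraries and on the log2 scale, Neat1 and Miat had r = 0.89 and rho = 0.79, with a two-sided exact permutation p of 0.0037 for r and 0.028 for rho (adjusted over 10 pairs, 0.037 and 0.12). Neat1 and Meg3 had r = 0.84 and rho = 0.76 (exact permutation p = 0.0091 and 0.037; adjusted 0.045 and 0.12). When WT 3 and TG 8, the libraries farthest from the Neat1 median, were left out, r was 0.75 for Miat and 0.78 for Meg3. Without WT 3 alone it was 0.76 and 0.67, and no test was run on these smaller sets. Deviations from the group means gave r = 0.94 for Neat1 and Miat and 0.83 for Neat1 and Meg3. With TMM scaling the pair of Neat1 and Meg3 no longer passed (adjusted exact permutation p = 0.067). Meg3 and Miat had r = 0.79 (exact permutation p = 0.021, adjusted 0.070), which was 0.50 without WT 3 and 0.28 without WT 3 and WT 7, and so rests on those libraries. None of the other 7 pairs passed for r after adjustment; Malat1 and Meg3 stood at r = 0.62 and rho = 0.83 (exact permutation p = 0.093 and 0.015; adjusted 0.23 and 0.12). Malat1 and Neat1, neighbours on chromosome 19, had r = 0.32 (adjusted exact permutation p = 0.63). WT 3 was the highest library for Neat1, Meg3 and Miat and for the pigment epithelium, lens and optic nerve sums. Whether those sums follow the 3 genes over the libraries was not tested, beyond leaving WT 3 out of the pairs.

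**Figure D4:**
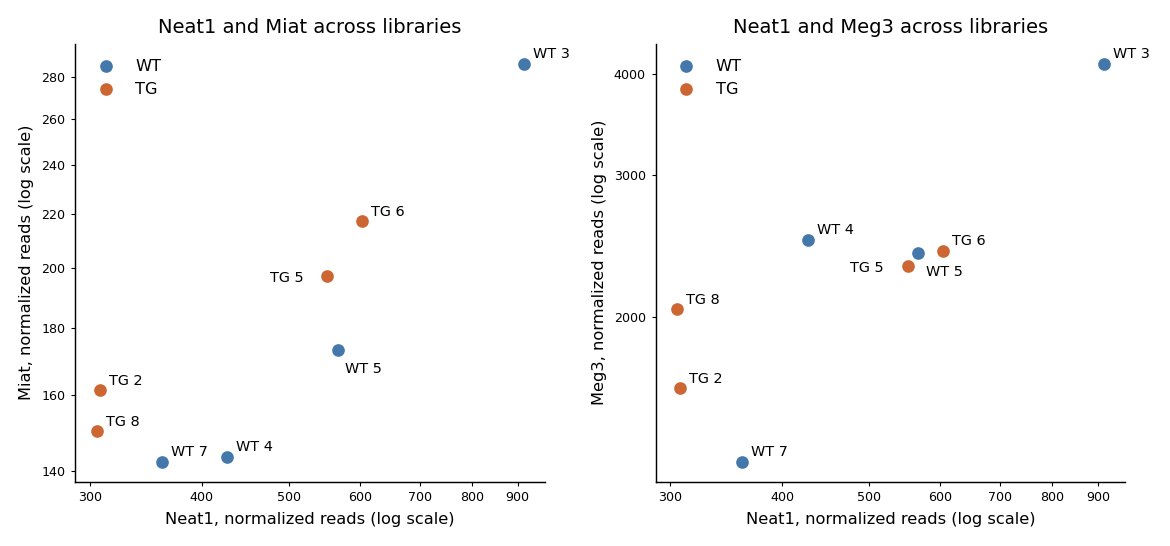
Normalized reads of Neat1 (x axes, log scale) against Miat (left) and Meg3 (right, both y axes log scale), 1 point per library, WT blue and TG orange. WT 3 is at the top of both panels, at 914 for Neat1, 287 for Miat and 4117 for Meg3, and the groups intermix along both trends.

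Among 7347 features with a symbol and a mean of at least 500, those most alike in pattern over the 8 libraries were found for 6 of the genes by Pearson's r, as a description that the large number of candidates makes high by itself. For Neat1 they were H3f3a, a histone gene (r = 0.968), Zbtb1 (0.967) and Lurap1l (0.966). For Meg3 they were Mex3c (0.972), Rab30 (0.959) and Zfp654 (0.957), and for Miat Ak3 (0.918), Otud1 (0.908) and Fah (0.905). Malat1 was nearest to Gnl3 (0.941), Slc31a2 (0.933) and Hs3st3b1 (0.928), and Rmst to Gldc (0.923), Smchd1 (0.907) and Lemd2 (0.899). Crnde was nearest to Pdcd10 (0.970), Slc10a3 (0.952) and St7l (0.940). Because Crnde was chosen by its difference between WT and TG, its pattern holds that difference. These 3 genes had log2 fold changes of -0.51, -0.28 and -0.36, and nothing is read from their likeness.

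No listed partner gene of these RNAs passed the threshold; at an unadjusted p under 0.05, limma counted 2 of 19 paraspeckle genes, 1 of 18 speckle genes and 0 of the other lists below, against 4.64% of all features. Of 18 nuclear speckle and SR protein genes, the proteins stored where Malat1 resides, 16 lay lower in TG with a median log2 fold change of -0.10, against -0.02 over all 19798 features, and 0 passed. Pnn, a splicing-associated speckle protein, averaged 711 ± 161 for WT against 490 ± 19.02 for TG (n = 4, SD), and Sf3b1, a core splicing factor, 1543 ± 572 against 984 ± 269. Srrm1 and Srsf5 stood at -0.22 ± 0.13 and -0.18 ± 0.15 (SE). The count of lower members ran from 10 to 17 over the settings tried, and the median was -0.016 without TG 2, -0.051 without WT 3, -0.19 without TG 6 and -0.18 without WT 7. Of 19 paraspeckle protein genes, partners of Neat1, 10 lay higher and 9 lower with a median of 0.018, which ran from -0.082 to 0.047 without 1 library, and 0 passed. Tardbp, an RNA-binding protein, had 2524 ± 82.4 and 2022 ± 193 normalized reads, and Fam98a had 625 ± 65.2 and 469 ± 61.6 (n = 4, SD). Those 2 of 19 (10.5%) had no overlap between groups, against 2.53% of all features, and Nudt21 stood at -0.57 with overlap. Of 13 genes of RNase P, which cuts the Malat1 3′ end, and RNase Z, 9 lay higher and 4 lower with a median of 0.11, and 0 passed. That median was 0.026 without WT 7, 0.032 without TG 6, 0.060 without WT 3 and 0.061 without WT 4, and 0.0032 without WT 3 and TG 6 together. With males only, 4 lay higher and 9 lower with a median of -0.075. Rpp25 and Rpp40 stood at 0.38 and 0.58, Pop5 at -0.26 and Elac1 at -0.65.

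In the Dlk1-Dio3 cluster around Meg3, 6 of 7 listed genes were measured, 3 lay higher and 3 lower in TG with a median of 0.052, which ran from -0.086 (without TG 6) to 0.19 (without TG 8), and 0 passed. Rian, another long noncoding RNA of the cluster and 32216 bases from Meg3, averaged 1691 ± 198 for WT against 1680 ± 362 for TG (n = 4, SD), a log2 difference of -0.025 ± 0.17 (SE). Mirg, a further maternal transcript, stood at -0.23 ± 0.31, Begain at 0.13 ± 0.15 and the thyroid hormone deiodinase gene Dio3 at 0.59 ± 0.79 (SE), with its antisense partner Dio3os at 0.51. Dlk1 was near the minimum, at 12.7 ± 8.60 and 11.7 ± 15.9 (n = 4, SD). Among 8 partners of Rmst and Miat, 3 lay higher and 5 lower with a median of -0.12, and 0 passed. That median was 0.0028 without TG 6, 0.041 without WT 3 and TG 6 together and 0.12 with males only. Sox2, the factor that Rmst binds, had 3054 ± 779 and 2944 ± 304 normalized reads, and Qk and Sf1, splicing regulators, stood at -0.49 ± 0.32 and -0.25 ± 0.14 (SE). Celf1 stood at -0.39 and Hnrnpa2b1 at 0.18.

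Around Malat1 and Neat1, Ltbp3 and Frmd8 stood at 0.38 ± 0.16 and -0.21 ± 0.33 (SE), and Tigd3 and Slc25a45 at 0.63 and 0.82, none of which passed. Near Miat, Tpst2 and Tfip11 stood at 0.060 and -0.064. The lens genes Cryba4 and Crybb1, also near Miat, were highest in WT 3 and next highest in TG 6, with 1094 and 385 normalized reads in WT 3. The feature of 6430411K18Rik, which lies 18824 bases from Meg3, stood at -1.66 ± 1.35 (SE) on a mean near the minimum.

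Other long noncoding RNA genes gave no call. Of 70 listed, 51 were measured, 24 lay higher and 27 lower with a median of -0.014, which ran from -0.079 (without TG 6) to 0.059 (without WT 3), and 0 passed. Terc, the telomerase RNA, stood at -1.85 ± 1.004 (SE), with 0 reads in TG 6, and at -0.81 without that library. The imprinted Kcnq1ot1 stood at -0.52 ± 0.30, Snhg18 at -0.27 ± 0.15 and Ftx, of the X-inactivation centre, at 2.22 ± 1.29 (SE). Ftx had 0 reads in WT 3 and WT 5, both male, so its log2 value rests partly on the pseudocount. Its female libraries had 34.6 to 45.8 normalized reads and its male libraries 0 to 35.5. Without 1 library, Kcnq1ot1 ran from -0.81 to -0.33 and Ftx from 1.35 to 3.20. Over the 989 features annotated as long noncoding RNA, 467 lay higher and 522 lower with a median of -0.02, and 1 passed, 0.101%, which was Gm19554, with the limits given above. Groups did not overlap for 2.93% of that class and 2.53% of all features.

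No gene of the marker lists of other cells passed (limma). All 12 microglia and macrophage markers lay higher in TG, with a summed level of 19438 to 27966 in WT and 18717 to 46382 in TG. Of 9 Mueller glia markers 7 lay higher, at sums of 111985 to 202108 and 165119 to 261444. Fewer markers lay higher than lower for endothelial cells and pericytes (1 of 10 higher), rods (3 of 10), cones (3 of 8), ganglion cells (4 of 9), oligodendrocytes and optic nerve (1 of 5) and red blood cells (2 of 5). More lay higher for amacrine and horizontal cells (7 of 10), pigment epithelium (5 of 8) and lens (6 of 8). Ganglion cell sums were 84927 to 131996 in WT and 72711 to 130162 in TG, amacrine and horizontal cell sums 10271 to 14480 and 12242 to 24439, cone sums 87701 to 115435 and 79115 to 120742, rod sums 3478939 to 3997957 and 3071400 to 4741731, and endothelial and pericyte sums 19471 to 30321 and 17693 to 24077. No listed marker was at 0 in every library. Their part in the values of the 7 genes was not tested.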

How the data were processed

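Each value is a DESeq2-normalized read count, a signal deposited by the authors, per the labels and the submitters' processing notes, which list mm10 (GRCm38), STAR 2.4.0, SAMtools, Picard, FastQC and DESeq2. How reads were counted, with which annotation and strand setting, is not stated there, so reads of overlapping or antisense genes could not be told apart. Libraries were polyA-selected and strand-marking, per the labels' protocols. All columns were mapped to samples.

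Each deposited column was whole multiples of its smallest positive value (100% of values, to within 0.01 read), which gave back the reads. As the main test, limma 3.58.1 (R 4.3.3) was run on log2(value + 1) with a trended prior variance over the 19798 features whose mean reached 10, adjusted by Benjamini-Hochberg with 0.05 as threshold. With these reads, edgeR 4.0.16 (its quasi-likelihood test) called 2 features and DESeq2 1.42.0 called 16. The fit was tested on simulated counts. Members and lists were chosen with earlier results of these data known. Lists are described by counts and medians. Named were the 7 genes, the 4 of each list with the smallest p, up to 4 nearest neighbours within 100 kb and the 3 most alike in pattern. Member pairs were tested by exact permutation. Other settings were TMM or upper-quartile scaling, pseudocounts, filters, a term for sex or for eye, only male retinas, and leaving out each library. Leaving out WT 3 and TG 6 together was chosen after seeing the data. GENCODE M21 and the RefSeq tables use the same build as the files. A few results that this rule would name are not reported here.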

Additional observations from a re-analysis of the deposited data

Results flagged for a closer look

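Of 92 groups of 4 libraries, those of 46 of the genes named, 6 had 1 library set apart from the other 3. The cut was Dixon's 95% critical gap on normalized reads without logs, which chance passes in about 1 in 20 groups of normally distributed values. None of the 6 was a group of the 7 long noncoding RNA genes, and nothing is read from the count. Cryba4 and Crybb1, lens genes near Miat, had 1094 and 385 normalized reads in WT 3, against 17.5 and 54.3 in the next WT library and 620 and 220 in TG 6, the next of all 8. Irx5, next to Crnde, had 372 in TG 5, against 570 in the next TG library. Dio3os had 151 in TG 6 against 35.2, Srrm1 had 6240 in WT 4 against 5277, and Pop5 had 3430 in TG 2 against 5791.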

How the results depend on the processing

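No paired analysis was possible because WT and TG share only 1 replicate number. No setting brought Malat1, Neat1, Meg3, Miat or Rmst past the threshold. The unadjusted limma p did move with the libraries used. For Malat1 it was 0.0038 without WT 7 and 0.027 with males only, and for Meg3 0.038 and 0.042. No other setting gave any of these 5 genes an unadjusted p under 0.05. Direction was the same under every setting for Malat1 and Neat1, but the size was not. Crnde and Gm19554 kept their direction too, but they were chosen by this difference, so nothing is read from that. Malat1, at -0.48, was -0.22 with eye as a term, -0.26 with sex as a term, -0.83 with males only, -0.72 with DESeq2 and -0.73 with edgeR, and Neat1, at -0.34, was -0.55 with males only. Meg3, at -0.20, was -0.061 with eye, -0.11 with sex and -0.58 with males only, and Rmst, at 0.24, was 0.082, 0.16 and 0.57, and 0.11 with DESeq2 and 0.10 with edgeR. Meg3 turned positive without WT 3, with a range of -0.49 to 0.060 over single libraries left out. Rmst turned negative without WT 5, with a range of -0.15 to 0.48. Miat ran from -0.10 to 0.23 over single libraries left out, and was -0.039 with DESeq2, -0.033 with edgeR and -0.11 with males only. Gm19554 was 4.81 with a pseudocount of 5. The count of features called higher in TG was 1 in the main test, 0 with a minimum mean of 50, no filter, a pseudocount of 0.5 or sex as a term, 9 with DESeq2, and 0 to 2 without 1 library. The count lower was 1, with 7 by DESeq2, 3 with males only and 1 to 2 without 1 library. Among member pairs, leaving out the 2 libraries farthest from the median moved r to 0.68 for Malat1 and Neat1, 0.47 for Malat1 and Miat, -0.45 for Neat1 and Rmst, 0.28 for Meg3 and Miat and -0.32 for Miat and Rmst (from 0.032). TMM gave 0.83 for Neat1 and Meg3. Signs also turned for neighbours and partners: without WT 3 and TG 6 together, Frmd8 (0.042); with upper-quartile scaling, Rian (0.023); with DESeq2 and edgeR, Cryba4 (-0.17 and -0.16); with males only, Tfip11 (0.11), Dio3os (-0.26), Qk (0.12) and Elac1 (0.18). Over single libraries left out, the ranges of those that turned were -0.16 to 0.039 for Rian, -1.62 to 0.27 for Dlk1, -0.16 to 0.058 for Tfip11, -0.15 to 1.14 for Dio3 and -0.016 to 1.06 for Dio3os. The causes of these turns were not tested. Depth limits Gm19554 in WT, at 0 to 7 reads, and Rmst, at 20 to 84.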
